A study of Mus musculus with 6 samples.

Results

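The genes described here are the 8 that form the core of the cGAS-STING pathway and its first product: Cgas, Tmem173, Tbk1, Ikbke, Ifnb1, Trim56, Trim32 and Banf1. They were chosen by name, as known parts of the pathway, with earlier results of these data known. All 8 were found among the 55487 genes of the count table. RNA had been sequenced from 4T-1 cells, a mouse breast cancer line derived from a mammary tumour, in 3 wild-type libraries and 3 libraries labelled Lyplal1 knockout. All 6 were labelled as given no treatment, and no other allele or agent was named. The library names hold NC for wild type and sg2 for knockout, which the labels do not explain. The series title ties the enzyme LYPLAL1 to removal of palmitate from cGAS, so the comparison asks how RNA of the pathway differs between the genotypes. Whether the 3 libraries per genotype were separate cultures, and whether the knockout cells were a single clone, is not stated in the labels, so p-values measure only the spread between these libraries, which may be technical.

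In this pathway the enzyme cGAS binds double-stranded DNA in the cytosol and makes the cyclic dinucleotide cGAMP. That messenger binds STING, a membrane protein of the endoplasmic reticulum whose gene is called Tmem173 in the annotation used here, and STING moves to the Golgi, where it recruits the kinase TBK1 or the related IKK epsilon (Ikbke). TBK1 phosphorylates the transcription factor IRF3, which enters the nucleus and, with NF-kB and AP-1 factors, switches on Ifnb1, the gene of interferon beta. TRIM56 and TRIM32 are ubiquitin ligases that act on STING, and TRIM56 also acts on cGAS. BAF, the product of Banf1, is a small DNA-bridging protein of the nuclear envelope that competes with cGAS for DNA. Much of this control works on proteins and their location, which RNA counts do not measure.

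Ifnb1 is the pathway's first product, switched on through factors at its promoter. Trim56 had the largest estimated change among the 7 tested genes of this core, close to that of Banf1 (log2 fold changes 1.03 and 1.01). The stretches of Ifnb1 and Trim56 that hold matches to interferon regulatory factor (IRF) motifs are shown. Capitals mark matches to AANNGAAA (the core of an IRF site), to an NF-kB type site (GGGAA, any 3 bases, CC) and to the letters TATAAA, the first 2 sought on either strand and the last on the gene's strand. None of the marked matches overlap one another. The sequences are RefSeq's, build GRCm38.p6, both on the minus strand of the genome and written in the direction of the gene. The Ifnb1 stretch is chr4:88522863-88522954, from 160 to 69 bases before the RefSeq gene start, and the Trim56 stretch is chr5:137116188-137116217, from 10 bases before to base 20 of the gene.
Ifnb1: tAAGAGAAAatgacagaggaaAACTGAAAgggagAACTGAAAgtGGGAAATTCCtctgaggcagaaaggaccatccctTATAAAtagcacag
Trim56: gattacTTTCAGTTttgTTTCTCTTgcagg

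The Ifnb1 window of 250 bases before to 50 after the start held 3 matches to AANNGAAA, which 1.12% of 32851 RefSeq promoter windows of that length reached. The NF-kB type match in Ifnb1 began 3 bases after the last base of the third IRF match, and 5.78% of windows held such a match. Trim56 had 2 IRF core matches on the other strand, at the start itself and just inside the gene, and 5.34% of windows held at least 2. Ikbke had 1 IRF core match, on the other strand from 132 to 125 bases before the start, and 23.9% of windows held at least 1. Cgas had an NF-kB type match and no IRF core match. No listed motif was found in the windows of Tbk1, Trim32 or either start of Banf1, and none of the 8 windows held the core of an interferon-stimulated response element (GAAA, any 2 bases, GAAA), which 3.44% of all windows did. Windows were matched for 7 of the 8 genes. A match is a description of letters, and binding was not measured.

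**Figure D1:**
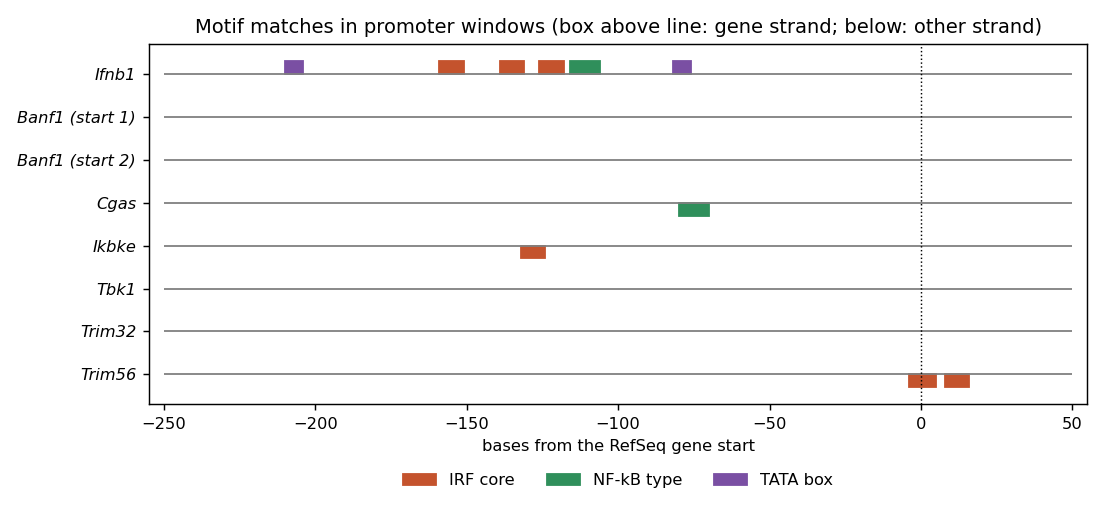
Motif matches in the RefSeq promoter windows, by distance in bases from the gene start (dotted line). Boxes above a line lie on the gene's strand and boxes below on the other strand, with red for IRF core, green for NF-kB type and purple for the TATAAA matches (labelled TATA box). The matches crowd in Ifnb1, with 3 IRF core matches beside 1 NF-kB type match, while Trim56 has 2 at its start.

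Library totals ran from 16731209 to 17108975 counts. Between the genotypes 82.3% of the 13022 genes that passed edgeR's filter on low counts were called, 41.3% higher and 40.9% lower in knockout (edgeR's quasi-likelihood F test with Benjamini-Hochberg adjustment, threshold 0.05). Against that background, 6 of the 7 tested genes of the pathway core rose, none fell, and Trim32 was not called. None fell by DESeq2 or limma-voom either, and none fell at an unadjusted p of 0.05 in edgeR, where Trim32 had 0.0977. Ifnb1 had too few counts to enter the test. The groups did not overlap in scaled counts (CPM, counts relative to the TMM-scaled library size) for any of the 8, as for 83.1% of all tested genes. Knockout lay above wild type for 7 of the 8, as for 41.7% of tested genes, and below it for Trim32, as for 41.4%. The median log2 fold change of the 7 was 0.33, beside -0.00 over all tested genes (-0.0012 before rounding), with knockout over wild type throughout.

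How the libraries are scaled decides part of this count. On the deposited TPM (counts per gene length, relative to each library's total) the median log2 fold change of all tested genes was -0.19 with a pseudocount of 1 and -0.21 with 0.1, and with upper-quartile factors it was -0.13. The share of calls that rose was 50.2% under TMM and 38.5% on TPM, and 42.8% with upper-quartile factors. On log2(TPM + 1), Ikbke, Trim56 and Banf1 rose, Trim32 fell, and Cgas, Tmem173 and Tbk1 were not called (limma-trend). Measured against the median gene, the changes of all 7 differed by less than 0.05 between TMM, upper-quartile factors and TPM.

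Ikbke, Trim56 and Banf1, with changes of 1.74-fold to 2.04-fold, kept their calls under each scaling tried. The calls of Cgas, Tmem173, Tbk1 and Trim32, with changes of at most 1.26-fold, moved with the scaling.

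Cgas encodes the sensor itself (ENSMUSG00000032344, chromosome 9, 78430526 to 78443237, GRCm38). Its wild-type counts were 326, 360 and 331, and its knockout counts 360, 364 and 404, given here and below in the order of replicates 1 to 3. Scaled, these were 18.2, 20.2 and 18.6 CPM against 22.5, 22.7 and 25.4 CPM, with knockout replicate 3 the highest. The log2 fold change was 0.31 ± 0.073 (SE), and Cgas was called higher (edgeR adjusted p = 3.62e-04). On the deposited TPM the groups overlapped, at 18.8, 20.9 and 19.1 against 20.3, 20.5 and 22.3. Its exons share 201 bases with the opposite-strand pseudogene Gm8093, which had 0 counts in every library.

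Tmem173 encodes STING (ENSMUSG00000024349). Wild-type counts were 432, 417 and 397, against 489, 436 and 475 for knockout. In CPM, knockout replicate 2 was the lowest of its group at 27.2 and still lay above the highest wild-type library at 24.1. The gene was called higher, at a log2 fold change of 0.33 ± 0.066 (edgeR adjusted p = 5.67e-05). In TPM the groups overlapped, wild-type replicate 1 at 37.6 standing above knockout replicate 2 at 37.0. Cgas and Tmem173 therefore differed between the genotypes by similar amounts, 1.24-fold and 1.26-fold, and neither passed a test against a change of 1.2-fold (adjusted p = 0.150 and 0.0861).

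**Figure D2:**
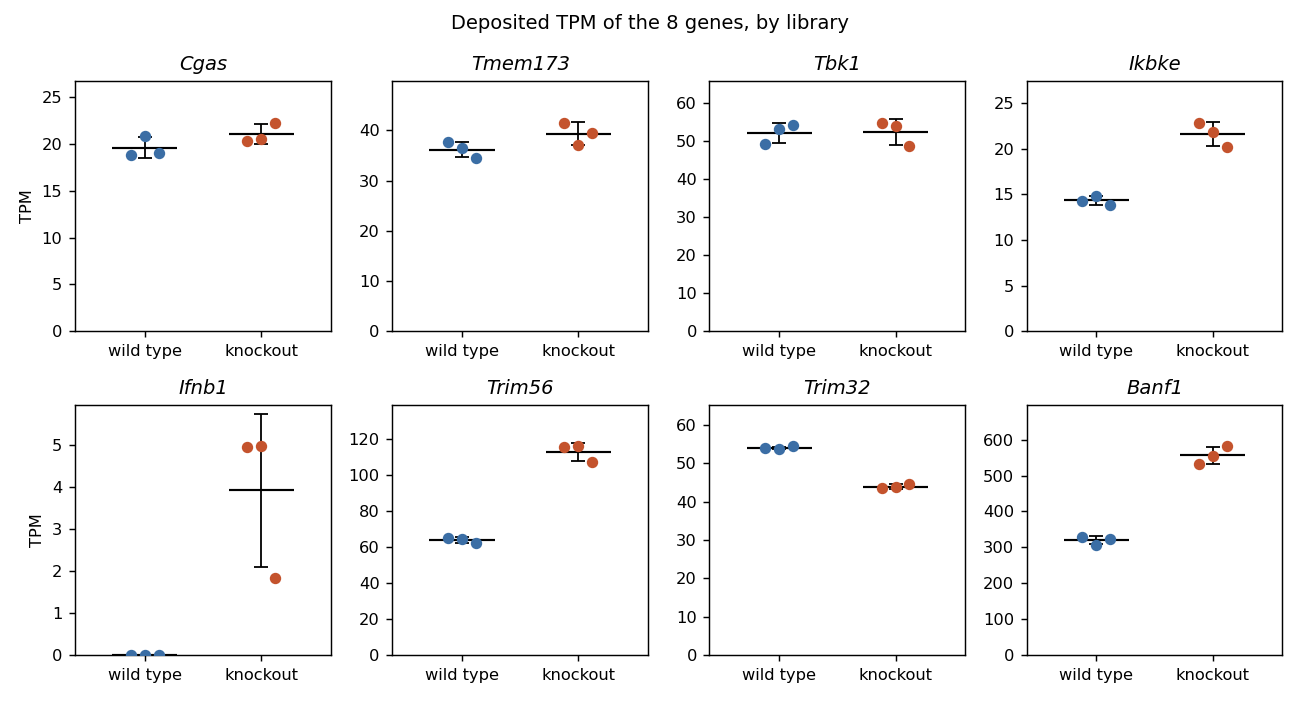
Deposited TPM of the 8 genes in each library (points), with the mean (line) and SD (bar, n = 3) of wild type in blue and knockout in red. Every axis starts at 0 and has its own scale. The groups overlap for Cgas, Tmem173 and Tbk1 and stand apart for Ikbke, Ifnb1, Trim56, Trim32 and Banf1, with Trim32 the member that is lower in knockout.

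Both kinases that STING recruits were higher in knockout under TMM scaling, Ikbke more than Tbk1. Tbk1 (ENSMUSG00000020115, chromosome 10, 121546455 to 121586787) had wild-type counts of 809, 868 and 894 and knockout counts of 923, 910 and 836. Knockout replicate 3 was the lowest of its group, at 52.6 CPM beside 57.7 and 56.8, and the highest wild-type library reached 50.3. Tbk1 was called higher at a log2 fold change of 0.21 ± 0.053 (edgeR adjusted p = 6.45e-04), but not with upper-quartile factors (0.08, adjusted p = 0.156). On TPM its group means were 52.3 ± 2.65 and 52.6 ± 3.42 (SD, n = 3 each), a difference inside the spread.

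Ikbke encodes IKK epsilon, a kinase that is itself inducible in many cell types (ENSMUSG00000042349, chromosome 1, 131254343 to 131279606). Its wild-type counts of 542, 559 and 526 compare with knockout counts of 886, 845 and 801, and the lowest knockout library stood well above the highest wild-type library. In CPM it went from 30.4 ± 0.891 to 52.8 ± 2.49 (SD, n = 3 each). The log2 fold change was 0.80 ± 0.055 (edgeR adjusted p = 4.04e-13), larger in size than that of 63.7% of tested genes. Its exons share 159 and 65 bases with the antisense genes Gm28914 and Gm28913, which had at most 5 and 8 counts in any library.

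The balance between the kinases does not depend on scaling, since both are read in the same library. Per length, Tbk1 stood above Ikbke by 3.44, 3.58 and 3.92 times in wild type (ratios of TPM). In knockout it did so by 2.40, 2.48 and 2.41 times. The size of this ratio depends on the lengths, since Ikbke has 9018 annotated exon bases and Tbk1 3910. In CPM, not per length, the mean ratio was 1.58 in wild type and 1.05 in knockout. The ratio was lower in every knockout library. The mean difference in the log2 ratio was -0.58, beyond the within-group SD of at most 0.10, and the exact two-sided permutation test gave p = 0.1, the smallest that 3 against 3 can give.

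The ubiquitin ligases Trim56 and Trim32 differed in their estimates. Trim56 (ENSMUSG00000043279, chromosome 5, 137105644 to 137116209) had wild-type counts of 2525, 2499 and 2420 and knockout counts of 4605, 4613 and 4366. It went from 139 ± 2.60 to 284 ± 7.60 CPM (SD, n = 3 each), a log2 fold change of 1.03 ± 0.035 (edgeR adjusted p = 8.04e-20). This was the largest estimate among the 7, with that of Banf1 within 1 SE of it, and larger in size than that of 73.1% of all tested genes.

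Trim32 (ENSMUSG00000051675, chromosome 4, 65604986 to 65616238) lies within the span of Astn2 on the opposite strand and shares no exon base with it. It was counted 730, 726 and 738 times among wild-type libraries and 603, 606 and 633 times among knockout libraries, a narrow range in each group. After TMM scaling it stood at 41.0 ± 0.446 and 38.5 ± 1.198 CPM (SD, n = 3 each), and its log2 fold change of -0.09 ± 0.053 missed the threshold (edgeR adjusted p = 0.114; 95% interval from -0.20 to 0.01). It was called lower with upper-quartile factors (-0.22, adjusted p = 4.11e-04) and on log2(TPM + 1) (-0.29, limma-trend adjusted p = 5.46e-05).

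Read against each other, the TPM ratio of Trim56 to Trim32 was 1.203, 1.198 and 1.141 for wild type, against 2.66, 2.65 and 2.40 for knockout. In CPM, not per length, the mean ratios were 3.39 and 7.38, with 9281 annotated exon bases for Trim56 and 3229 for Trim32. The groups did not overlap, and the mean log2 ratio was higher by 1.12 in knockout. The exact two-sided permutation p was again 0.1, the smallest this design allows.

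Banf1, the gene of BAF (ENSMUSG00000024844, chromosome 19, 5364638 to 5367168), had the highest level per length (TPM) of the 8 in both genotypes, though fewer counts than Trim56. Its wild-type libraries held 2061, 1919 and 2030 counts and its knockout libraries 3420, 3570 and 3821, with knockout replicate 3 the highest. In CPM it went from 112 ± 4.06 to 226 ± 13.6 (SD, n = 3 each), a log2 fold change of 1.01 ± 0.042 (edgeR adjusted p = 1.16e-17). Its exons share 428 bases, 28.6% of their length, with Eif1ad on the opposite strand, so with the strand setting unknown some reads could belong to either gene. Eif1ad had 547 to 628 counts in wild type and 613 to 664 in knockout, and its log2 fold change was 0.29 ± 0.059 (edgeR adjusted p = 7.85e-05).

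**Figure D3:**
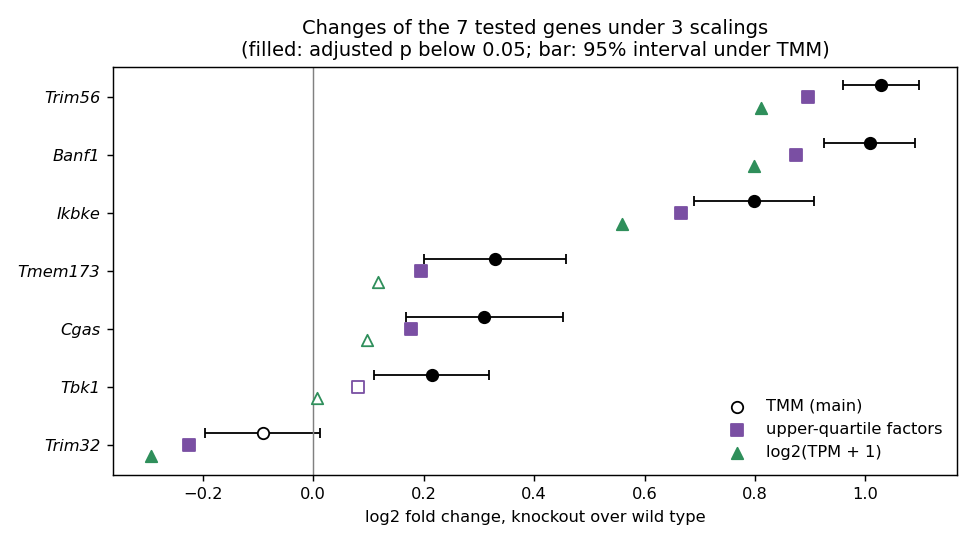
Log2 fold change (knockout over wild type) of the 7 tested genes under TMM (circles, bars of the 95% interval), upper-quartile factors (squares) and log2(TPM + 1) (triangles). Filled symbols passed an adjusted p of 0.05. Trim56, Banf1 and Ikbke are filled under all 3, Tmem173 and Cgas lose the call on TPM, Tbk1 loses it under both alternatives, and Trim32 gains it as a fall.

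Ifnb1 is a gene without introns at ENSMUSG00000048806, chromosome 4, 88522025 to 88522774. No wild-type library held a count of it (0, 0 and 0), while the knockout libraries held 16, 16 and 6. The exact 95% Poisson intervals, which cover counting error only, were 9.15 to 26.0 counts for 16 and 2.20 to 13.1 for 6, so the third library's interval overlaps the others. In CPM the knockout libraries stood at 1.0, 0.999 and 0.378. A count of 0 allows up to 3 counts, or 0.0560 CPM over the wild-type group. Against that floor Ifnb1 was at least 14.2-fold higher in knockout. This bound, like those given below, takes the knockout counts as they stand, without their counting error. The exact two-sided permutation p was 0.1, the smallest possible. With no filter on low counts Ifnb1 entered the test and was called (edgeR adjusted p = 2.86e-11), and DESeq2 called it as well (adjusted p = 1.75e-05). Without the filter the edgeR adjusted p of all 6 genes that rose was smaller, 1.46e-164 for Trim56, and that of Trim32 larger. The p-values of that fit are therefore not comparable with those of the main test.

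A pattern of no wild-type count and at least 6 counts in every knockout library was shared by 66 genes, Ifnb1 included. Of 376 genes with no wild-type count and at least 1 count in each knockout library, 62 had more knockout counts than Ifnb1.

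The other interferon genes were close to silent. Of 20 listed type I and type III genes, 8 had any count and none passed the filter. Not all of the 8 are named here. Summed over the 20, Ifnb1 included, wild-type libraries held 3, 5 and 1 counts and knockout libraries 18, 25 and 18. Among the alpha interferon genes, Ifna2 had 2 counts in knockout replicate 2 and Ifnab had 1 in knockout replicate 1, while the remaining Ifna genes had 0 in every library. Ifnl2, a type III interferon gene, had 0 counts in wild type and 1, 3 and 6 in knockout. Its close paralog Ifnl3 had 0 counts in wild type and 0, 3 and 5 in knockout, and reads shared by the pair are uncertain. Both were highest in knockout replicate 3, the library where Ifnb1 was lowest, but these counts are too few to show a difference between knockout libraries. Ifnz, with 1, 2 and 1 counts, was seen in wild type alone, too few to show a difference.

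**Figure D4:**
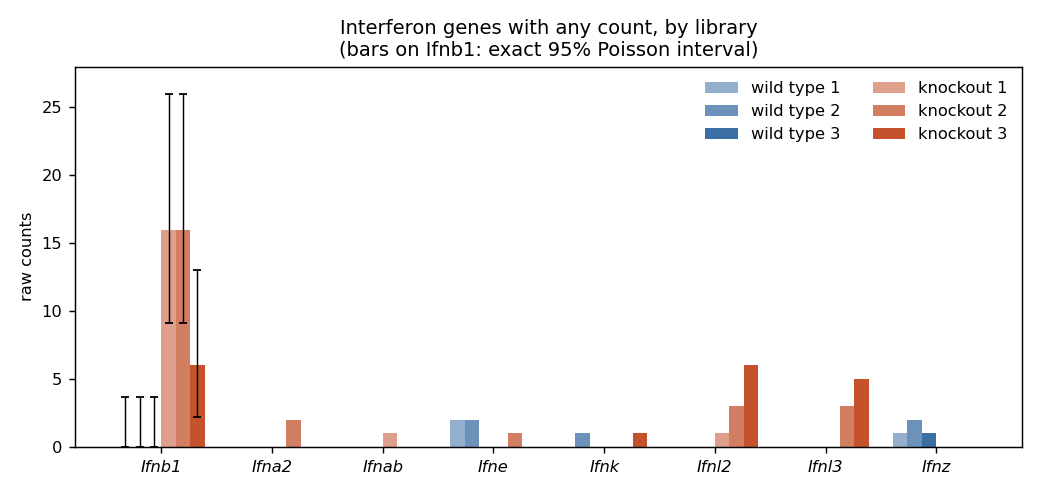
Raw counts of the 8 interferon genes with any count, by library, wild type in blue and knockout in red. Bars on Ifnb1 are exact 95% Poisson intervals. Ifnb1 holds 16, 16 and 6 knockout counts and no wild-type count, and no other interferon gene exceeds 6 counts in a library.

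Knockout replicate 3 also stood apart in genes of other cell types. Of 12 immune and endothelial markers, 2 were at 0 there, against 5 to 8 in the other 5 libraries. The monocyte gene Lyz2 had 28, 45 and 263 counts in the knockout libraries, the endothelial gene Cdh5 had 8, 10 and 34, and the fibroblast collagen Col3a1 had 6, 3 and 64. The macrophage genes Csf1r and Adgre1 had 4, 3 and 14 and 0, 0 and 8 knockout counts, against at most 3 and 0 in wild type. Itgam and Nkg7 reached 3 counts in knockout replicate 3, with none in wild type. The pan-leukocyte gene Ptprc had 3, 4 and 7 wild-type and 2, 1 and 4 knockout counts, and Siglech had 0 throughout. The mammary epithelial genes Krt8, Krt18, Epcam and Cdh1 were present in all libraries, Epcam at 1568 to 1626 wild-type and 455 to 498 knockout counts. The summed immune and endothelial markers, at 8.46 to 8.98 CPM in wild type and 445 to 505 CPM in knockout, were nearly all Cd68, a lysosomal glycoprotein, at 7054 to 7657 knockout counts. Fibroblast markers summed to 67.3 to 70.2 CPM in wild type and 171 to 180 CPM in knockout, most of it Pdgfra. Of the 2 fibroblast markers tested Pdgfra rose and the collagen gene Col1a1 fell, the latter from 65, 60 and 71 counts to 15, 14 and 37. Summed mammary epithelial markers were 3127 to 3218 CPM in wild type and 1748 to 1767 CPM in knockout. Of 7 tested, 5 fell, Krt14 was not called, and Esr1, the estrogen receptor gene, rose 1.92-fold. Of all tested genes 40.9% fell and 41.3% rose. The part of these differences in the pathway genes was not tested, and in bulk RNA a change in the share of cells cannot be told apart from a change of RNA per cell. Without knockout replicate 3 all 6 genes that rose were still called, with log2 fold changes from 0.26 for Cgas and Tbk1 to 1.06 for Trim56. Ifnb1 then also passed the filter and was called, at least 17.8-fold higher.

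Levels of different genes were ordered per length, so the order depends on the lengths used. Ikbke and Trim56 have 9018 and 9281 annotated exon bases, and Cgas has 4126. In wild type the order by mean TPM was Banf1 (320), Trim56 (63.8), Trim32 (54.0), Tbk1 (52.3), Tmem173 (36.2), Cgas (19.6), Ikbke (14.4) and Ifnb1, listed at 0. Only Trim32 and Tbk1 overlapped among neighbours in that order. In knockout it ran Banf1 (556), Trim56 (113), Tbk1 (52.6), Trim32 (43.9), Tmem173 (39.3), Ikbke (21.6), Cgas (21.0) and Ifnb1 (3.92). There Ikbke, at 20.2 to 22.9, and Cgas, at 20.3 to 22.3, overlapped, whereas in wild type every Cgas TPM lay above every Ikbke TPM. In CPM, not per length, Ikbke stood above Cgas in both genotypes. Its means were 30.4 in wild type and 52.8 in knockout, against 18.99 and 23.55 for Cgas. The sensor was thus among the least abundant of these messages, and Banf1 exceeded it in TPM in every library.

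Profiles over the 6 libraries were compared by the root mean square difference of log2 CPM, each gene centred on its own mean. The closest pairs among the 7 were Trim56 with Banf1 (0.08) and Cgas with Tmem173 (0.09), and the farthest was Trim56 with Trim32 (0.56). Such closeness was common, since 927 tested genes lay within 0.1 of Cgas and 517 within 0.1 of Trim56. The genes nearest to Cgas were Zfp598 and Tbca, to Tmem173 Hgs (whose exons overlap another gene model of that name) and Rpain, and to Tbk1 Ppp1r7 and Dvl3. Taz was near to Ikbke, and the genes nearest to Trim56 were Cobll1 and Eif4a2, to Trim32 Plekha7 and Acp2, and to Banf1 Rnf187 and Arl2. These are likenesses over 6 libraries in 2 groups and are mostly set by the size of the difference between the groups.

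Around this core, 7 lists of known partners and regulators were read from the same test. Across them 57 genes rose and 57 fell, or 43 and 69 on log2(TPM + 1). Of all 13022 tested genes 5382 rose and 5329 fell, or 4125 and 6598 on log2(TPM + 1). The TPM counts of each list below are to be read beside the latter. Of 22 tested enzymes and cofactors that act on cGAS, 9 rose and 9 fell (median log2 fold change -0.09), shares near the 41.3% and 40.9% of all tested genes. On TPM the counts were 7 and 13. Zdhhc18, a palmitoyltransferase reported to act on cGAS, rose 2.39-fold and Trim14, which protects cGAS from degradation, rose 2.91-fold, although 31.3% of its exon bases are shared with Nans. Senp7, a SUMO protease, was 1.65-fold higher in wild type, and Akt1, a kinase, 1.33-fold. Casp1, named after its values were seen, had 0 wild-type and 409 knockout counts, at least 152-fold higher. Lyplal1 itself, with wild-type counts of 76, 73 and 68 and knockout counts of 54, 48 and 58, was not called (log2 fold change -0.28 ± 0.15, edgeR adjusted p = 0.0886), so its RNA does not check the labels. Trex1, whose nuclease removes cytosolic DNA, had 0 counts in every library, and all of its exon bases lie within those of Atrip, so its level cannot be read here.

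Among genes that carry or break down cGAMP, 3 of 12 tested rose and 9 fell (median -0.75), against 41.3% and 40.9% of all tested genes, and on TPM 2 rose and 9 fell. The 9 are all carriers, channels or receptors. Enpp1, the cGAMP hydrolase and the one tested breakdown gene, had wild-type counts of 48, 41 and 35 and knockout counts of 54, 55 and 54, and rose under TMM (log2 fold change 0.55 ± 0.18, edgeR adjusted p = 0.00536). Abcc1, a cGAMP exporter, went from 196 ± 3.08 to 592 ± 10.02 CPM (SD, n = 3 each; edgeR adjusted p = 7.85e-25). Among subunits of the LRRC8 volume-regulated channels, which pass cGAMP, Lrrc8d rose 1.35-fold while Lrrc8c was 1.95-fold higher in wild type. Gja1, the gap junction protein connexin 43, was 2.14-fold higher in wild type.

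Genes of STING transport rose more often than they fell. Of 21 tested, 16 rose and 2 fell (median 0.39), against 41.3% of all tested genes that rose. With log2(TPM + 1) these counts were 12 and 5. Surf4, a cargo receptor that returns STING to the endoplasmic reticulum, rose 2.08-fold, and Npc1, a lysosomal cholesterol transporter that promotes STING turnover, rose 2.51-fold. Ap1g1, a clathrin adaptor subunit that shares 18.7% of its exon bases with Gm17344, and Zdhhc7, a Golgi palmitoyltransferase, were lower in knockout, by factors of 1.26 and 1.24. Among ubiquitin ligases and deubiquitinases of STING, 9 of 16 rose and 5 fell (median 0.20), or 7 and 7 on TPM. Of all tested genes 41.3% rose and 40.9% fell under TMM. Trim30a went from 3, 1 and 1 counts to 3141, 3180 and 3152, and Usp18 from 8, 13 and 12 to 3890, 4041 and 4391. Both are interferon-inducible, while Usp49 and Usp44 were lower in knockout, by factors of 5.10 and 1.75. For Usp49, 51.2% of exon bases are shared with Gm20517.

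All 28 adaptors and regulators of TBK1 and IKK epsilon were called, beside 82.3% of all tested genes. Of the 28, 11 were higher and 17 lower (median -0.22), beside 41.3% and 40.9% of all tested genes. On TPM the counts were 8 and 17. Optn, a ubiquitin-binding adaptor of TBK1, rose from 31.7 ± 1.95 to 102 ± 6.41 CPM (SD, n = 3 each; edgeR adjusted p = 4.36e-20), and Dtx4, a ligase that marks TBK1 for degradation, rose 2.02-fold. Traf3, an adaptor that brings TBK1 into signalling complexes, was 1.76-fold higher in wild type, and the phosphatase gene Ptpn1 2.33-fold.

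Of 10 tested factors that assemble at the Ifnb1 promoter, 5 rose and 4 fell (median 0.04), near the shares of all tested genes (41.3% and 40.9%), or 4 and 6 on TPM. Irf7, the interferon-inducible factor, went from 47, 34 and 45 counts to 10352, 10728 and 11365, and Irf1 rose 10.2-fold. Irf3, the direct target of TBK1, fell, with a log2 fold change of -0.37 ± 0.055 (edgeR adjusted p = 7.95e-07). The AP-1 genes Jun and Atf2 were higher in wild type by factors of 2.10 and 1.42. All 14 listed interferon-induced genes rose, among them Ifit1 and Oasl2, and their summed level went from 104 to 109 CPM in wild type to 7548, 7818 and 8015 CPM in knockout replicates 1 to 3. Knockout replicate 3, with the fewest Ifnb1 counts, had the highest sum of these genes. Its 6 Ifnb1 counts and the 16 of each other knockout library overlap in their Poisson intervals. A relation between Ifnb1 counts and these sums was not tested.

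Of 16 tested partners of BAF at the nuclear envelope 4 rose and 11 fell (median -0.29), against 41.3% and 40.9% of all tested genes. Emd, which encodes emerin, a LEM domain protein that binds BAF, rose 2.81-fold, and Vrk2, from a family of kinases that phosphorylate BAF, rose 1.87-fold. Vrk1 and Vrk3 of the same family were lower in knockout, by factors of 1.28 and 1.23. The lamin genes Lmnb1 and Lmna were lower in knockout, by factors of 1.89 and 1.54. Banf2, the paralog of Banf1, had 0 counts in every library.

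**Figure D5:**
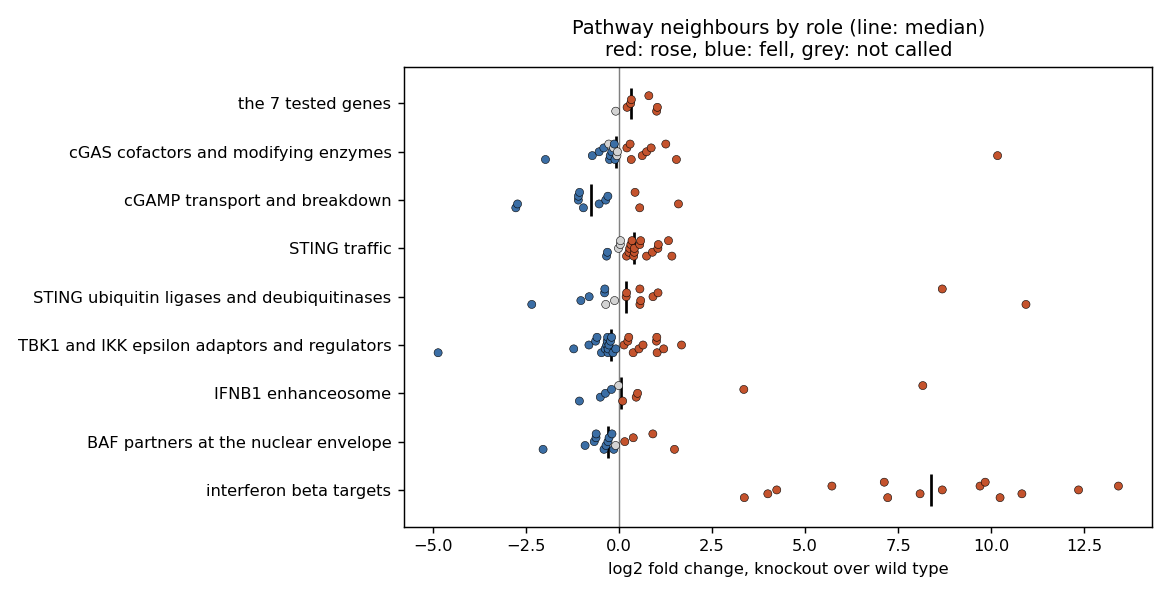
Log2 fold change (knockout over wild type) of each tested gene, by role, with a line at each list's median. Red points rose, blue points fell and grey points were not called. The 7 tested core genes lie between -0.09 and 1.03, the STING traffic list has 16 of 21 genes in red, and all 14 interferon-induced genes lie far to the right.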

How the data were processed

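RNA was measured in 6 libraries, 3 per genotype, by sequencing. Alignment and counting tools, per the submitters' processing notes, included featureCounts 2.0.1 and STAR 2.7.8a, with build GRCm38. Their settings, the strand and the annotation release were not given in the labels. The authors deposited counts per gene and TPM for 55487 genes, and the 12 single-library files held the same values. Symbols and positions came from GENCODE M21 (55141 identifiers matched) and promoters from RefSeq.

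Counts were tested with edgeR 4.0.16 (filterByExpr, TMM factors, robust quasi-likelihood F test, two-sided, Benjamini-Hochberg over 13022 genes, threshold 0.05). The SE of a log2 fold change was derived from its F statistic. Ratios of TPM were compared by exact permutation. On simulated counts for these 13022 genes, 56% of 50 genes changed 1.25-fold were recovered, 76% of 50 changed 1.5-fold and 96% of 50 changed 2-fold, with 10 calls among unchanged genes. In that simulation few genes changed, as many up as down, while 82.3% of genes were called between the genotypes. Its rates therefore do not describe the calls that moved with the scaling. Alternatives were RLE and upper-quartile factors, DESeq2 1.42.0, limma 3.58.1 (voom, and trend on log2 TPM with pseudocounts 1 and 0.1), other filters, a test against 1.2-fold, a replicate block and leaving out each library. R was 4.3.3, Python 3.11.15 and SciPy 1.17.1.

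The genes and lists were chosen with earlier results of these data known. Named are all 8 genes, for each list and direction the 2 called genes of lowest adjusted p, Lyplal1 and Irf3, the 2 tested genes nearest in profile to each tested gene (1 is not reported here), and markers where a result needed them. Genes named beyond this, such as Casp1, Trex1, Banf2 and the overlapping genes, were chosen after their values were seen. Some exons are shared between genes; Irf3, Irf7, Irf1, Jun, Emd, Npc1, Surf4, Vrk2, Optn and Usp18 share up to 13.6% of their exon bases.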

Additional observations from a re-analysis of the deposited data

How the results depend on the processing

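Cgas, Tmem173 and Tbk1 were not called on log2(TPM + 1) (0.0972, 0.1174 and 0.0069 on the log2 scale; limma-trend adjusted p = 0.175, 0.0750 and 0.915), on log2(TPM + 0.1) (0.1015, 0.1201 and 0.0070), or against 1.2-fold (0.31, 0.33 and 0.21). Tbk1 was not called with upper-quartile factors (0.0815). Trim32 was called lower with upper-quartile factors (-0.22), on log2(TPM + 1) (-0.29) and on log2(TPM + 0.1) (-0.30). The 6 genes that rose became 3 on either TPM scale and against 1.2-fold, and the 0 that fell became 1 with upper-quartile factors and on both TPM scales. The genes of STING transport that fell went from 2 to 4 with upper-quartile factors and to 5 on TPM. Ikbke, Trim56 and Banf1 kept their direction and call in every alternative run.

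Leaving out 1 library gave log2 fold changes of 0.26 to 0.35 for Cgas, 0.30 to 0.39 for Tmem173, 0.17 to 0.26 for Tbk1, 0.77 to 0.84 for Ikbke, 1.01 to 1.06 for Trim56, 0.97 to 1.05 for Banf1 and -0.11 to -0.07 for Trim32, with no call of these 7 changed; Ifnb1 entered the test and was called without any 1 wild-type library and without knockout replicate 3. The lower bound for Ifnb1 ran from 9.42-fold without wild-type replicate 1, a shift of over 1.5 times because the floor is then spread over 2 libraries, to 17.8-fold without knockout replicate 3. With the replicate block the members stood at 0.31 (Cgas), 0.33 (Tmem173), 0.21 (Tbk1), 0.80 (Ikbke), 1.03 (Trim56), -0.09 (Trim32) and 1.01 (Banf1), and the calls were the same 6; over all genes 5430 rose and 5368 fell with the block. Same-numbered libraries correlated in their deviations at -0.007, 0.042 and 0.013, so the numbers were not taken to pair the samples, and not every library correlated best with its own number. Depth limits Ifnb1 and the other interferon genes, whose counts were at most 16.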
